A study of Mus musculus with 2 samples.

Results

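The thrombospondin family, 5 genes named Thbs1, Thbs2, Thbs3, Thbs4 and Comp, was followed in RNA from mouse tongue at embryonic day 12. The members were chosen by gene symbol, as the 5 family members among 22072 symbols, with the low mutant value of Thbs4 already known. The values of the genes between the libraries are therefore given as a description. Tongues of the mutant genotype, Osr1f/-; Wnt1cre, were set against tongues of the control genotype, Osr1f/+, both on a mixed background. Each genotype gave 1 library, made from RNA pooled over 3 embryo pairs of mutant and control, so there was no replicate and no test between genotypes. Mutant tongues carried a floxed Osr1 allele over a null allele, with Cre recombinase driven by Wnt1 sequences, which is active in the neural crest lineage. Control tongues carried a floxed allele beside a wild-type allele, and their label names no Cre. Every mutant cell, of whatever lineage, held the null allele. Skeletal muscle of the tongue comes from somites, outside the Wnt1 lineage, while most of its connective tissue comes from neural crest.

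Thrombospondins are large secreted calcium-binding glycoproteins that link cells to the extracellular matrix. Thbs1 and Thbs2 form trimers and carry type 1 repeats, through which Thbs1 activates latent TGF-beta and both limit blood vessel growth. Thbs3, Thbs4 and Comp lack these repeats and form pentamers. Thbs4 is known from tendon, muscle attachments, heart and nerve, Thbs3 from the growing skeleton, and Comp, the cartilage oligomeric matrix protein, from cartilage and tendon. All 5 share the carboxy-terminal region of the protein, with its calcium-binding type 3 repeats, and bind integrins and other receptors.

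The transcript models of GENCODE M21 (build GRCm38) showed this division by length. Coding sequences were 3516 nt in Thbs1 and 3519 nt in Thbs2, against 2871 nt in Thbs3, 2892 nt in Thbs4 and 2268 nt in Comp. In local alignments of the coding sequences, Thbs1 and Thbs2 had 70.5% identical bases over 3206 aligned nt, and Thbs4 and Comp had 72.8% over 2067 nt. Thbs3 had 70.6% identity to Thbs4 and 71.2% to Comp. Pairs across the division had between 65.1% (Thbs1 and Thbs3) and 67.0% (Thbs2 and Comp), over shorter stretches. Related copies can share reads, so the longest run of bases found in both transcripts was searched for in all 10 pairs. It was between 15 and 26 nt, shorter than the 47.1 bases that 1 read was estimated to cover. Only exact runs in the longest coding model of each gene were searched. Whether reads aligned with mismatches were shared between members cannot be told from this search and was not tested. The 2 runs of 26 nt, both in coding sequence, are shown as the longest exact runs found. The first lies in Thbs1 at chr2:118120893-118120918 (plus strand) and in Thbs2 at chr17:14676284-14676309 (minus strand). The second lies in Thbs4 at chr13:92755377-92755402 (minus strand) and in Comp at chr8:70379696-70379721 (plus strand).
Thbs1 and Thbs2: ggagaccgctgtgacaactgccccta
Thbs4 and Comp: cagaccatgaacagtgaccctggcct

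Promoter letters of Thbs4, the member whose libraries lay farthest apart, are shown beside those of Thbs3 and Thbs2, the other members matched in the RefSeq promoter table (GRCm38.p6, 3 of 5 members). Each is the 250 bases before the annotated start, on the gene's own strand, 5′ to 3′, and none of these is a measurement of the study. Capitals mark matches, on either strand, of 3 short motifs. The first is the TATA-like box, spelled ATAAA. The second is the E-box, which many bHLH factors bind, spelled CANNTG. The third is the GC box of the Sp factors, spelled GGGCGG. The Thbs4 bases are chr13:92794819-92795068 (minus strand), those of Thbs3 are chr3:89214930-89215179 (plus strand) and those of Thbs2 are chr17:14694263-14694512 (minus strand).
Thbs4: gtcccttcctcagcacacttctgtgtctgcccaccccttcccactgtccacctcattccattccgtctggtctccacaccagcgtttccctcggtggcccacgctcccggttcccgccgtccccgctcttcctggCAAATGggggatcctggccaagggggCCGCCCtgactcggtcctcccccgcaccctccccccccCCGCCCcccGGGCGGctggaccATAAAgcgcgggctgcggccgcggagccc
Thbs3: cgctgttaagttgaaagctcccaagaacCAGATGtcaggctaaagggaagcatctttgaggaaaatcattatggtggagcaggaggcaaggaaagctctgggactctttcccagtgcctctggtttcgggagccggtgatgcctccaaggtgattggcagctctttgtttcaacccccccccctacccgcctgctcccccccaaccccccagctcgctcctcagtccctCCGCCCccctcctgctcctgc
Thbs2: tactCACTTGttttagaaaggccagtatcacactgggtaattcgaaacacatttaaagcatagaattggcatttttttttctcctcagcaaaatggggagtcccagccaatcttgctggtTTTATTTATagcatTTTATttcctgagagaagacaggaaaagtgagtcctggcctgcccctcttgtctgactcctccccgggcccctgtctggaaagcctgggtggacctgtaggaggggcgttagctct

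The 3 promoters differed in composition. The Thbs4 window held 70.8% G or C and 19 CpG dinucleotides, with 3 GC boxes and 1 ATAAA that began 29 bases before the start. The Thbs3 window held 58.8% G or C, 6 CpG, 1 GC box and no ATAAA. The Thbs2 window held 46.8% G or C, 3 CpG, no GC box and 3 matches of ATAAA, 1 of them inside a match of TATAAA. Over 32851 windows of the same length, the median was 52.4% G or C with 6 CpG, 37.3% of windows held ATAAA, 12.4% held TATAAA and 32.7% held GGGCGG. Each of the 3 windows held 1 E-box, a motif found in 66.2% of all windows. AGTAGC, the core of the sequence that Osr proteins bind in vitro, was in none of the 3 windows on either strand and in 7.99% of all windows.

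Depth, estimated from the deposited coverage, was about 23200000 mapped reads in the mutant and 19000000 in the control library. Levels are in FPKM, fragments scaled for transcript length and for the mapped total, which allows genes of different length to be compared. Osr1 itself had 18.4 FPKM in the mutant library, against 56.8 FPKM in the control library. Some markers of the tongue's muscle (Myod1, Myog), epithelium (Epcam, Krt5) and mesenchyme (Prrx1, Twist1) were above 10 FPKM in both. Other markers of these tissues were lower. Levels in the whole lists ran from 1.51 to 322 FPKM for skeletal muscle, 7.12 to 43.9 for epithelium and 2.39 to 228 for cranial mesenchyme. Xist had 86.1 FPKM in the mutant and 61.1 FPKM in the control library. The part played by the sex of the pooled embryos in the values of the family was not tested.

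Thbs4 was the member that stood apart. Thbs4 (NM_011582, 1 transcript row, mm9 chromosome 13, 93521541 to 93564773) had 19.2 FPKM in the mutant library, against 41.5 FPKM in the control library. These levels rested on about 1427 reads in the mutant and 2524 in the control library. The mutant library was the low one, with a ratio of mutant to control of 0.461. Its 95% counting interval, computed exactly from the 2 read numbers, was 0.432 to 0.493. Such intervals cover counting error only: reads copied in amplification are not separate molecules, and no variation between embryos enters them. In whole tongues, fewer Thbs4-expressing cells and less Thbs4 RNA per cell cannot be told apart.

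**Figure D1:**
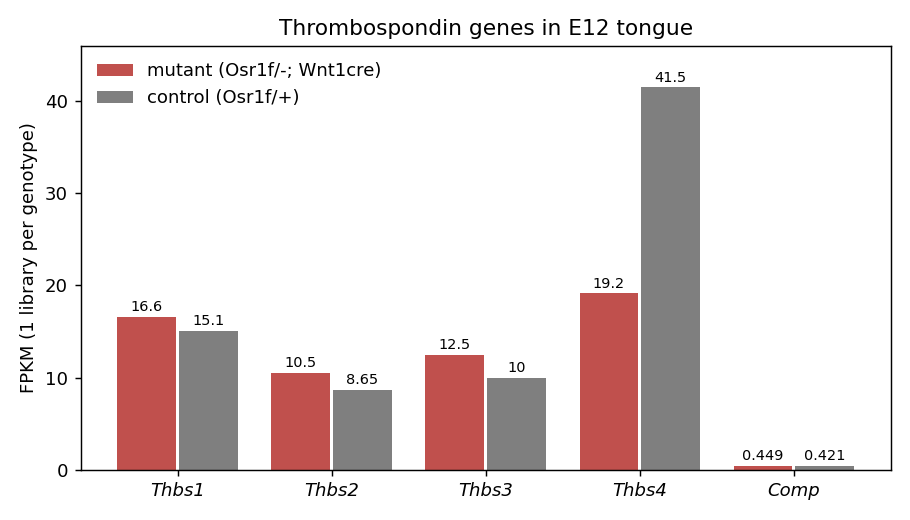
FPKM of the 5 thrombospondin genes, with 1 bar for each library, the mutant left of the control. Thbs4 stood at 19.2 in the mutant and 41.5 in the control library, Thbs1, Thbs2 and Thbs3 were slightly taller in the mutant, and Comp was below 1 in both.

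Thbs1 and Thbs2, the trimer-forming members, lay slightly higher in the mutant library. Thbs1 (NM_011580, chromosome 2, 117937658 to 117952869) had 16.6 FPKM in the mutant and 15.1 FPKM in the control library, from about 2238 and 1663 reads. Its ratio was 1.10 (1.03 to 1.17). Thbs1 protein is abundant in platelets, and the platelet and megakaryocyte markers were near the limit of the measured range. Of that list of 8 genes, 3 reached 1 FPKM, and the list summed to 8.78 FPKM in the mutant and 7.75 FPKM in the control library. None was at 0, and Pf4, Gp1bb and Ppbp were the ones that reached 1 FPKM. Ppbp had 2.28 FPKM in the mutant and 1.06 FPKM in the control library, from about 57 and 22 reads. Its ratio was 2.16 (1.27 to 3.63), that of Pf4 was 0.855 (0.543 to 1.36) and that of Gp1bb 1.06 (0.702 to 1.62). The 10 endothelial markers summed to 92.4 FPKM in the mutant and 88.9 FPKM in the control library. Of them 6 were higher and 4 lower, where 51.2% of all measured genes (defined below) were higher and 48.8% lower. The part of platelets and vessels in the Thbs1 value was not tested.

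Thbs2, which is made by fibroblasts and shapes collagen fibrils in mice (NM_011581, chromosome 17, 14802507 to 14831269), had 10.5 FPKM in the mutant and 8.65 FPKM in the control library. About 1449 and 973 reads lay behind these levels, and the ratio was 1.22 (1.12 to 1.32). Thbs3 (NM_013691, chromosome 3, 89019109 to 89030759), of the pentamer-forming group, had 12.5 FPKM in the mutant and 10.0 FPKM in the control library. With about 924 and 604 reads, its ratio was 1.25 (1.13 to 1.39). Thbs3 and Thbs4 therefore lay on opposite sides of 1 although they belong to the same structural group.

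Thbs3 and Comp have close neighbours. In the deposited mm9 models Mtx1, a mitochondrial import gene on the opposite strand, lay 851 bases from Thbs3, and no model of another gene overlapped any of the 5 members. In GENCODE M21 (GRCm38), however, Mtx1 (chromosome 3, 89209081 to 89227088) spans all of Thbs3 (89215180 to 89226837). Overlaps of other genes with the members were not searched for in that annotation. Mtx1 had 17.7 FPKM in the mutant and 20.8 FPKM in the control library, a ratio of 0.852 (0.759 to 0.953). The strand setting of the counting is not given in the sources used here, so reads of the 2 strands may not have been kept apart.

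Comp was barely present. Comp (NM_016685, chromosome 8, 72897447 to 72905965) had 0.449 FPKM in the mutant and 0.421 FPKM in the control library. That is about 25 and 19 reads, where 3 reads would give 0.0532 FPKM in the mutant and 0.0652 FPKM in the control library. The ratio of 1.07 had an interval of 0.568 to 2.06, so a difference of up to about that size was not detectable at this depth. Crtc1, a CREB coactivator gene, lay 291 bases from Comp in the mm9 models, with 13.4 FPKM in the mutant and 12.9 FPKM in the control library. The part of stray reads from it in the Comp value was not tested. The cartilage markers, by contrast, summed to 242 FPKM in the mutant and 174 FPKM in the control library. Of these markers 10 of 10 were higher, where 51.2% of all measured genes (defined below) were higher by any amount. Col2a1, the main cartilage collagen, was at 131 FPKM in the mutant and 98.4 FPKM in the control library. The part of cartilage in the Comp value was not tested.

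**Figure D2:**
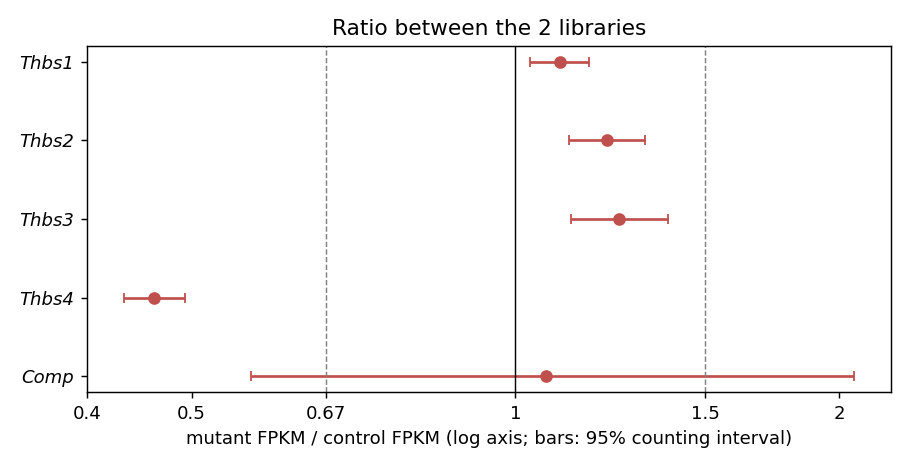
Ratio of mutant to control FPKM for each member on a log axis, with the 95% counting interval as a bar and 1.5-fold marked by dashed lines. Thbs4 lies at 0.461, beyond the line, Thbs1, Thbs2 and Thbs3 lie between 1.10 and 1.25, and the interval of Comp runs from 0.568 to 2.06.

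The family's order by level was the same in both libraries, Thbs4 first, then Thbs1, Thbs3, Thbs2 and Comp. The distances within that order differed. In the mutant library Thbs4 was 1.15 times the level of Thbs1, whereas in the control library it was 2.75 times that level. In the mutant library the counting intervals of these neighbours, 18.2 to 20.2 FPKM for Thbs4 and 15.9 to 17.3 FPKM for Thbs1, lay close together without overlap. In the control library they were 39.9 to 43.2 FPKM and 14.4 to 15.8 FPKM. Thbs3 and Thbs2 had separate intervals in the mutant library, 11.7 to 13.3 and 9.99 to 11.1 FPKM. In the control library their intervals, 9.22 to 10.8 and 8.12 to 9.22 FPKM, met at their ends.

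Thbs4 thus made up less of the family in the mutant library. It held 32.4% of the summed FPKM of the 5 genes in the mutant and 54.9% in the control library. Thbs1 held 28.0% in the mutant and 19.9% in the control library, Thbs3 21.1% and 13.2%, Thbs2 17.8% and 11.4%, and Comp 0.758% and 0.556%. Shares within a library add to 100%, so a lower share of Thbs4 by itself raises those of the other genes. The family as a whole summed to 59.2 FPKM in the mutant and 75.7 FPKM in the control library. Without Thbs4 it summed to 40.1 FPKM in the mutant and 34.2 FPKM in the control library, a ratio of 1.17. The trimer-forming pair summed to 27.1 FPKM in the mutant and 23.8 FPKM in the control library, and the pentamer-forming group to 32.1 and 52.0 FPKM. Within the pentamer-forming group only Thbs4 was lower in the mutant library. Thbs3 had 12.5 FPKM in the mutant and 10.0 FPKM in the control library, and Comp had 0.449 and 0.421 FPKM.

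**Figure D3:**
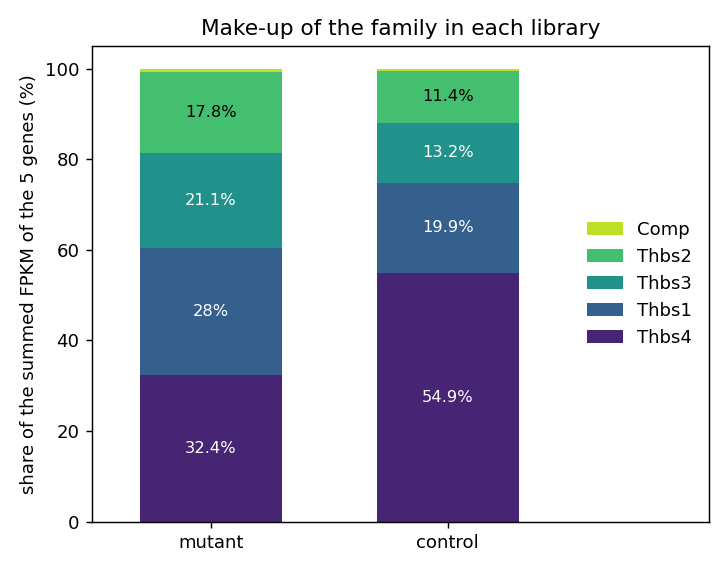
Share of each gene in the summed FPKM of the 5 thrombospondins, in percent, with 1 column per library. The Thbs4 segment covers 32.4% of the mutant column and 54.9% of the control column.

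Against all genes, the ratio is given as the log2 of the quotient of both levels, mutant over control, after 1 was added to each FPKM value. A gene counted as measured if it had at least 1 FPKM in either library and the status OK in all its rows, which 12383 genes and 4 of the 5 members did, Comp being the exception. All 4 passed in both libraries. The log2 ratios were −1.08 for Thbs4, 0.13 for Thbs1, 0.26 for Thbs2 and 0.29 for Thbs3, with a median of 0.19, where the median of all measured genes was 0.0035. Of the 4, 1 (Thbs4) was at least 1.5-fold lower, where 0.581% of measured genes were that much lower, and none was 1.5-fold higher, where 0.896% were. In either direction 1.48% of measured genes passed 1.5-fold. Thbs4 was also past 2-fold, as were 0.266% of measured genes in the lower direction. Since Thbs4 was known to be low when the family was chosen, nothing is read from these shares.

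Small differences were common between the libraries. By any amount 51.2% of measured genes were higher and 48.8% lower in the mutant, against 3 and 1 of the 4 members. The counting interval lay wholly above 1 for 10.7% of measured genes and for Thbs1, Thbs2 and Thbs3, and wholly below 1 for 10.3% and for Thbs4. With 1 library per genotype, the higher values of these 3 genes have no replicate check. Of all measured genes, 3.89% had a higher log2 ratio than Thbs3, 5.05% than Thbs2 and 15.6% than Thbs1. At the low end, 29 of the 12383 measured genes had a lower log2 ratio than Thbs4, 5 of them among the 8970 genes of at least 5 FPKM. Among measured genes, 28.0% were above the Thbs4 level in the mutant library and 10.5% were above it in the control library.

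**Figure D4:**
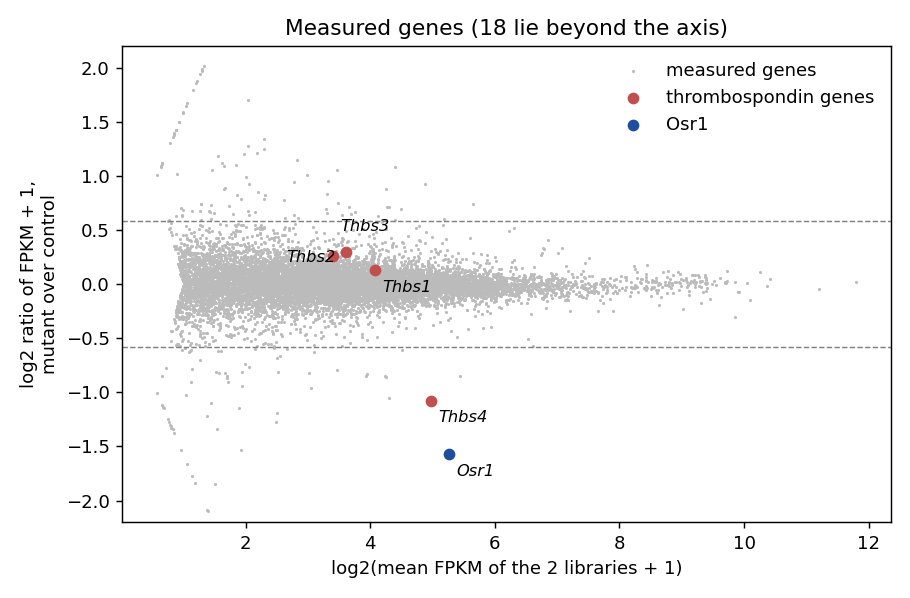
Log2 ratio of mutant over control against the mean level of each measured gene (log2 of FPKM plus 1), with dashed lines at 1.5-fold. Thbs4, at −1.08, lies below the cloud near Osr1, at −1.57, while Thbs1, Thbs2 and Thbs3 lie within its upper part, and 18 genes lie beyond the axis.

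The genes nearest to Thbs4 in the pair of levels were sought among 7122 other named genes of at least 5 FPKM without an overlapping model, by Euclidean distance between log2 values of FPKM plus 1. Over 2 libraries such likeness means only a similar level and a similar ratio. The nearest gene was Osr1, at a distance of 0.45, with a log2 ratio of −1.57. Next came Lbh, a transcriptional cofactor of heart and limb, with 27.0 FPKM in the mutant and 35.5 FPKM in the control library at a distance of 0.52. Cited1, a transcriptional coactivator, followed with 21.7 and 28.9 FPKM, Krt5, a basal keratin, with 23.6 and 29.7 FPKM, and Mrpl4, a mitochondrial ribosomal protein gene, with 23.4 and 28.9 FPKM. The ratios of these 4 were between 0.749 and 0.809, all closer to 1 than that of Thbs4.

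The counts of each list stand beside the shares over all measured genes, of which 51.2% were higher and 48.8% lower by any amount. Past 1.5-fold, 0.896% were higher and 0.581% lower. The genes whose proteins bind thrombospondins showed no difference of the Thbs4 size. Of 17 receptor genes 14 were measured, with 3 higher, 11 lower, none past 1.5-fold and a median log2 ratio of −0.07. The split was 5 higher and 9 lower when FPKM was rescaled to equal sums or quantile normalized. Itgav, the alpha chain of integrins that bind the RGD motif of thrombospondins, had 14.4 FPKM in the mutant and 17.0 FPKM in the control library, a ratio of 0.848 (0.80 to 0.898). Itga3, a laminin receptor chain that also binds Thbs1, had a ratio of 0.863 (0.766 to 0.973). Lrp1, which takes up thrombospondins into cells, had 0.932 (0.902 to 0.963), and the proteoglycan gene Sdc4 had 0.931 (0.819 to 1.06). Cd36, the receptor for the antiangiogenic signal of Thbs1, was below 1 FPKM in both libraries, as were Itga7, a muscle integrin chain, and Nlgn1. Cd47, a receptor for the carboxy-terminal region of Thbs1, had 6.52 FPKM in the mutant and 6.55 FPKM in the control library, and Cacna2d1, the receptor of thrombospondins in synapse formation, had 11.2 and 11.1 FPKM.

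Matrix partners were mixed, with 10 of 16 measured genes higher, 6 lower and a median log2 ratio of 0.07. Past 1.5-fold were Col9a1, a collagen of the cartilage fibril surface that Comp binds, and Matn4, a matrilin, both higher. Col9a1 had 42.8 FPKM in the mutant and 27.8 FPKM in the control library, and Matn4 had 14.9 and 9.13 FPKM, with a model that overlaps Rbpjl. Dcn, which encodes the collagen-binding proteoglycan decorin, had 11.7 FPKM in the mutant and 17.2 FPKM in the control library, a ratio of 0.680 (0.604 to 0.766). Col1a1, a chain of the main fibrillar collagen to which Thbs4 and Comp bind, had 195 FPKM in the mutant and 216 FPKM in the control library. Col1a2, a chain of the same collagen, went the other way with 367 and 325 FPKM, a ratio of 1.13 (1.11 to 1.15). Fn1 had 90.6 FPKM in the mutant and 92.6 FPKM in the control library.

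Growth factor and protease partners had 11 of 14 measured genes higher and 3 lower, none past 1.5-fold, with a median log2 ratio of 0.08. Tgfb3 had 25.1 FPKM in the mutant and 19.5 FPKM in the control library, a ratio of 1.28 (1.20 to 1.38). Adamts7, a protease that cleaves Comp, had a ratio of 1.15 (1.07 to 1.24), Vegfa 1.10 (1.02 to 1.18) and Tgfb1, whose latent form Thbs1 activates, 1.10 (0.908 to 1.35).

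Other genes with thrombospondin type 1 repeats split into 9 higher and 7 lower of 16 measured, out of 21, with none past 1.5-fold and a median of 0.05. Ctgf and Wisp1, matricellular genes of the CCN family, had ratios of 1.32 (1.12 to 1.56) and 1.28 (1.14 to 1.44). Rspo1, a WNT pathway agonist, had 1.14 (0.939 to 1.38), and the guidance gene Sema5a had 13.6 FPKM in the mutant and 15.9 FPKM in the control library. The median was −0.04 when genes under 1 FPKM were included.

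Thbs4 protein also acts inside the cell in mice, where it binds Atf6 and aids the secretory pathway under stress, so genes of that pathway were listed. The list holds chaperones and their partners, the ubiquitin ligase gene Syvn1 and the stress transcription factors Atf6, Xbp1, Atf4 and Ddit3. All 15 genes were measured and all 15 were lower in the mutant library, by small amounts, where 48.8% of all measured genes were lower by any amount. The 15 log2 ratios lay between −0.30 and −0.00071, with a median of −0.08. The counting interval lay wholly below 1 for 5 of the 15, as it did for 10.3% of all measured genes. With FPKM rescaled to equal sums 14 were lower and 1 was higher. Atf6 itself had 5.16 FPKM in both libraries. The chaperone gene Hyou1 had a ratio of 0.873 (0.828 to 0.920), Manf, which encodes a secreted stress protein, 0.852 (0.781 to 0.930) and Atf4 0.881 (0.826 to 0.939). Ddit3 had 0.782 (0.578 to 1.06), and its model overlaps Mars. None passed 1.5-fold.

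Tendon and muscle attachment, the setting in which Thbs4 is best known, had its own list. Of 17 genes 12 were measured, with a median log2 ratio of 0.23. In the mutant library 9 were higher, where 51.2% of all measured genes were, and 3 were lower. The lower ones were Tnc, a matrix glycoprotein of tendon, with a ratio of 0.936 (0.899 to 0.974), Col22a1, a collagen of the muscle and tendon junction, with 0.908 (0.755 to 1.09), and Bgn, a small leucine-rich proteoglycan gene, with 0.961 (0.908 to 1.02). Aspn, Ogn and Fmod, of the same family of leucine-rich genes as Bgn and Dcn, were higher and past 1.5-fold, as were 0.896% of all measured genes. Aspn had 9.65 FPKM in the mutant and 4.30 FPKM in the control library, Ogn had 23.4 and 13.9 FPKM, and Fmod had 4.07 and 2.18 FPKM. Scx, a transcription factor that marks tendon progenitors, had 33.7 FPKM in the mutant and 23.8 FPKM in the control library, a ratio of 1.42 (1.27 to 1.58). Mkx, of the same list, had 3.29 FPKM in the mutant and 2.06 FPKM in the control library, a ratio of 1.60 (1.28 to 2.00). Its log2 ratio after 1 was added to each level, 0.49, stayed short of 1.5-fold. Col12a1, a fibril-associated collagen of tendon, had 1.17 (1.11 to 1.24). The models of Aspn and Ogn overlap Cenpp and that of Scx overlaps Bop1. Tnmd, a marker of mature tendon cells, was below 1 FPKM in both libraries.

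**Figure D5:**
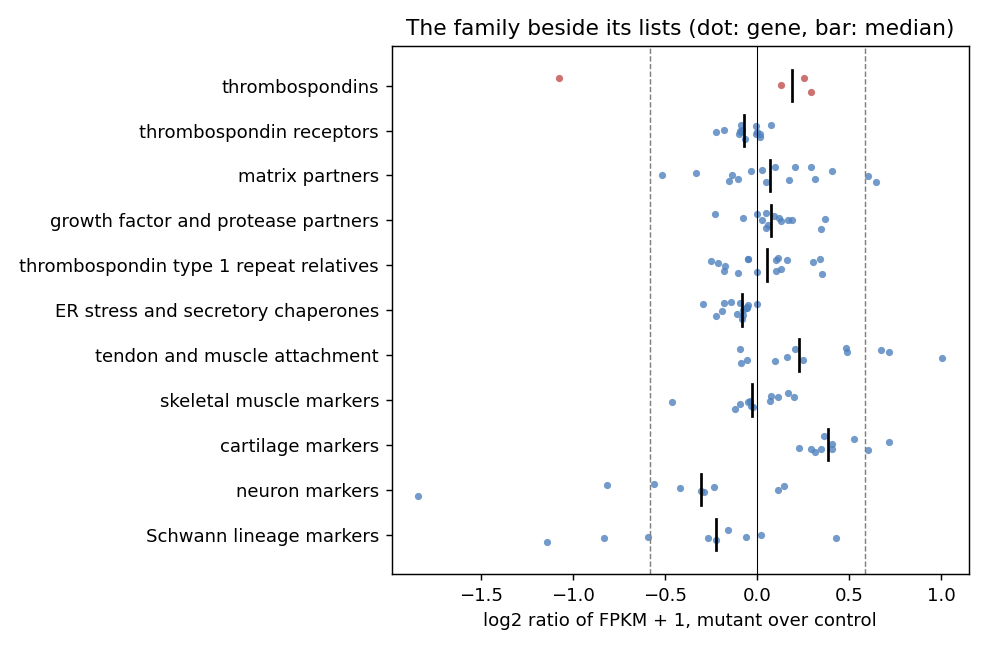
Log2 ratio of mutant over control for each measured gene of the family, its partner lists and 4 marker lists, with the median of each list as a black bar and dashed lines at 1.5-fold. The thrombospondins hold 1 gene at −1.08 and 3 between 0.13 and 0.29, receptors and secretory stress genes lie near 0, tendon and cartilage genes lie mostly to the right, and neuron and Schwann lineage genes mostly to the left.

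Marker lists show what else differed beside Thbs4. Their counts again stand beside 51.2% of all measured genes higher and 48.8% lower by any amount. Skeletal muscle markers, all 12 measured, summed to 763 FPKM in the mutant and 730 FPKM in the control library, with 5 higher and 7 lower and a median log2 ratio of −0.03. Neuron markers summed to 34.4 FPKM in the mutant and 47.6 FPKM in the control library, with 2 higher and 7 lower of 9 measured. Schwann lineage markers summed to 55.5 and 73.4 FPKM, with 2 higher and 7 lower of 9. Single members of both lists lay as far from 1 as Thbs4 or farther. Snap25, a synaptic gene, had 0.239 FPKM in the mutant and 3.45 FPKM in the control library, and Mbp, a myelin gene, had 1.33 and 4.14 FPKM. The Mbp ratio of FPKM, 0.321, lay outside the counting interval from its reads, 0.329 to 0.501, so its reads differed less than its FPKM. Sox10, which defines the Schwann lineage, had 3.94 FPKM in the mutant and 4.51 FPKM in the control library, and no gene of either list was at 0. Thbs4 is also made in nerve, and the part of nerve in its value was not tested. Epithelial markers summed to 163 FPKM in the mutant and 181 FPKM in the control library, with 9 of 10 lower. Erythroid markers summed to 1177 and 1429 FPKM, with 6 of 6 measured lower. The macrophage list summed to 28.0 FPKM in the mutant and 24.3 FPKM in the control library, with 6 of 7 measured higher, and the cranial mesenchyme list, which holds Osr1, to 690 and 745 FPKM, with 4 of 10 higher. The part of epithelium, blood, mesenchyme or muscle in the Thbs4 value was not tested either.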

How the data were processed

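Whole embryonic tongues were measured by RNA sequencing, from cDNA of a NuGEN Ovation kit, per the labels' protocols. FPKM, as the authors deposited it, is given for each RefSeq transcript in the layout of a Cufflinks isoform table. Coverage, the other deposited signal used, rises with depth. Bowtie 0.12.7, TopHat 1.4.1 and mm9 are named in the submitters' processing notes. For the Cufflinks version, read length and strand setting, nothing was found (not given in the sources used here).

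Levels were summed per symbol, which for each thrombospondin was 1 row. Reads were estimated as coverage times length over 47.1 bases, the median of the lowest cluster (40 to 55) of that product in single-row genes of at least 1000 nt. Only products within that window were used, so the median could not fall outside it. The read numbers, depths and interval widths depend on this choice. Ratio intervals are exact conditional (Clopper-Pearson) and level intervals exact Poisson, both at 95%. The script was tested on simulated data. With 1 library per genotype, no p-value was computed.

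Members and lists were chosen with earlier results of these data known. Named genes were all members, Osr1, any model overlapping a member in the deposited mm9 models (none) and the 5 nearest to a member past 1.5-fold. Mtx1 was named as well, and beside the members it was the only gene looked up in GENCODE M21. Per partner list, the up to 4 genes with the largest absolute log2 ratios at 5 FPKM and any past 1.5-fold were named too. Named beyond this rule, after their values were seen, were Crtc1, Tnc, Col22a1, Bgn, Syvn1, Xbp1, Cd36, Itga7, Nlgn1, Cd47, Cacna2d1, Col1a1, Col1a2, Fn1, Atf6, Tnmd, Mkx, Snap25, Mbp, Sox10, Xist, Acan, Matn1, Bai3 and the tissue markers named as present. The alternatives were other pseudocounts, scalings, filters and rows. The sequences come from RefSeq (GRCm38.p6) and GENCODE M21. Python 3.11.15, pandas 2.3.3, scipy 1.17.1 and Biopython 1.88 were used.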

Additional observations from a re-analysis of the deposited data

How the results depend on the processing

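Over 10 alternatives, Thbs4 kept a log2 ratio between −1.12 and −1.07 and was the 1 member past 1.5-fold in each. Thbs1, Thbs2 and Thbs3 stayed between 0.12 and 0.14, 0.25 and 0.28, and 0.29 and 0.32, and the median of the members between 0.13 and 0.21. Comp had values between 0.01 and 0.09, and none with a minimum of 5 FPKM. The share of measured genes past 1.5-fold was 2.95% with a pseudocount of 0.1, 2.84% as plain ratios, 2.46% rescaled to equal sums, 2.87% with the highest transcript row only and 0.725% at 5 FPKM. As plain ratios 4 matrix partners passed, with Acan and Matn1 added, and 1 type 1 repeat gene, Bai3, passed there and with a pseudocount of 0.1. The causes were not tested. Of 207 recomputed values 8 were counted as moved, all among these, and smaller shifts were not counted. The tendon and muscle attachment list had 3 genes past 1.5-fold in the main setting. It had 4, with Mkx added, with a pseudocount of 0.1, as plain ratios and rescaled to equal sums. At 5 FPKM it had 2, without Fmod. With a pseudocount of 0.1, 3 matrix partners passed, with Matn1 added. No paired analysis was possible because each genotype has 1 library. Leaving out a library was not possible for the same reason. Depth limits Comp, which rests on about 25 reads in the mutant and 19 in the control library.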
